A study of Mus musculus with 7 samples.

Results

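The genes described here are those of respiratory complex I in the acid-secreting corpus of the mouse stomach, after diphtheria toxin had been directed at its parietal cells. They were chosen by name: every gene whose symbol starts with Nduf, that had a probe set assigned to it alone, and that is not a pseudogene. There were 42 such genes of 22180 genes measured: 32 genes of complex I subunits, 8 genes of Ndufaf assembly factors, and Ndufa4 and Ndufa4l2, which carry the Nduf name but are not counted here as complex I subunits. The subunits Ndufs6, Ndufb1, Ndufb2 and Ndufb4 and the 7 mitochondrially encoded subunits had no probe set of their own in the annotation used and are not analysed here.

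All mice were Atp4b-DTR transgenic animals aged 8 to 12 weeks, in which the promoter of the proton pump gene Atp4b makes parietal cells carry the receptor for diphtheria toxin. The control mouse carried the transgene too and received saline, and the other groups received 225 ng of toxin daily for 3 days, as a dose per mouse. Corpus tissue was taken 24, 36, 48 or 72 h after the last dose, giving single arrays for the control, the 24 h group and the 36 h group and 2 arrays each for the 48 h and 72 h groups. The arrays at 48 h and 72 h are called independent samples by the study, with no further word on the animals behind them, so p-values measure only the spread between these arrays.

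Complex I, or NADH dehydrogenase, is the entry point of electrons from NADH into the respiratory chain of the mitochondrial inner membrane, and it pumps protons as it passes them to ubiquinone. Its matrix arm carries the flavin and the iron-sulfur clusters, its membrane arm carries the proton channels, and accessory subunits surround a conserved core. Assembly factors join the modules and are not part of the finished enzyme. Parietal cells are packed with mitochondria, because acid secretion by the proton pump consumes much ATP.

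All values are log2 signal from the authors' normalisation, and a difference of 1 stands for a 2-fold change. The tissue label was borne out by markers of the corpus on the control array, with Atp4b at 12.94 (log2), pepsinogen C (Pgc) at 13.37 and the surface cell gene Gkn2 at 13.07. Krt4, a keratin of the squamous forestomach that adjoins the corpus, ranged from a log2 value of 4.12 to 8.51 between arrays, and the 48 h and 72 h pairs each held 1 low and 1 high array. Arrays also fell into 2 sex patterns: Xist, the RNA that silences an X chromosome in female cells, measured 8.13 in the control, 9.17 in the 24 h sample and 2.70 to 3.27 in the other 5. Differences of 36, 48 and 72 h from the control therefore also cross these patterns, whereas 24 h against control and 72 h against 48 h each lie within 1 pattern. The subunits Ndufa1 and Ndufb11 are encoded on the X chromosome; without them the median difference of subunits from the control was -0.42 and -0.20 on the 48 h arrays, against -0.45 and -0.21 with them.

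The median of the complex I subunit genes was below the control 24 to 48 h after the last dose and slightly above it at 72 h, when 9 of the 32 subunits were still lower, while the median of the Ndufaf assembly factor genes lay closer to the control at 24 to 48 h. No single Nduf gene passed limma's test after adjustment over all genes at 48 h or 72 h. The medians and the single arrays of 24 h and 36 h were not tested. The median difference of the 32 subunits from the control was -0.33 at 24 h and -0.18 at 36 h. The 48 h arrays gave -0.45 and -0.21, the 72 h arrays 0.04 and 0.21. In percent these medians correspond to -20.3% (24 h), -26.8% with -13.6% (48 h) and 2.54% with 15.8% (72 h). Both 48 h arrays thus lay below the control and both 72 h arrays above it, although the smaller value at 72 h became -0.02 when the median of all probe sets was subtracted from each array. For the 8 Ndufaf genes the medians were -0.0045 (24 h), 0.05 (36 h), -0.07 with -0.04 (48 h) and 0 with 0.11 (72 h). Over all 22180 genes the median difference was 0 on every array. Fewer parietal cells and less RNA per cell cannot be told apart in such bulk tissue.

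**Figure D1:**
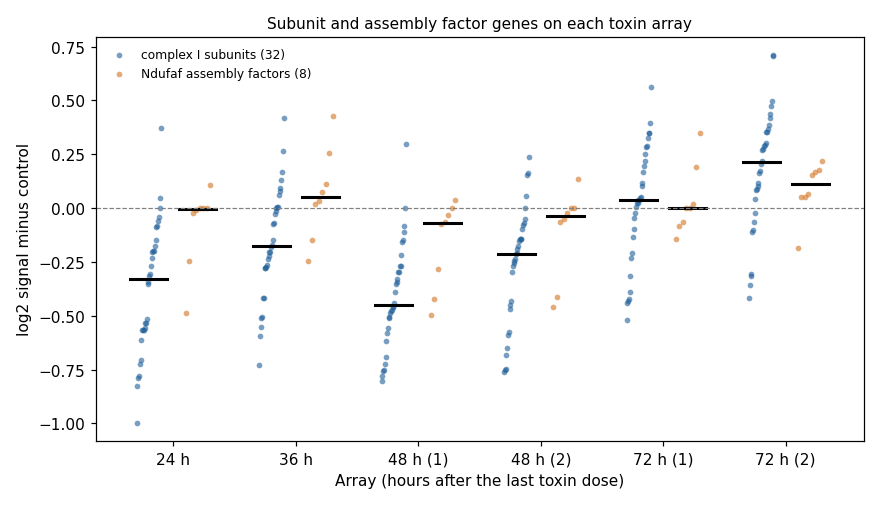
Log2 signal minus control (vertical axis) of each of 32 complex I subunit genes and 8 Ndufaf assembly factor genes on the 6 toxin arrays (horizontal axis; points sorted by value within each set, black bars at medians). The subunit median lies below 0 on the 24, 36 and 48 h arrays and at 0.04 and 0.21 at 72 h, while the assembly factor median stays between -0.07 and 0.11.

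At 24 h, with 1 array against 1 and no replicate check, 29 of the 32 subunits lay below the control, where 46.6% of all genes did. A log2 difference of at least 0.32 downwards was seen for 16 subunits, against 13.8% of all genes, and upwards for 1 (11.3% of all genes). Above the control lay 2 subunits (44.8% of all genes). No subunit differed by 2-fold in either direction, as 1.67% of all genes did downwards and 1.2% upwards. The lowest values were those of membrane arm subunits Ndufc1, at -0.996 from the control, and Ndufa10, at -0.83, and of the core subunit Ndufs1, at -0.79. The highest were Ndufs5 at 0.37 and Ndufb7 at 0.05, also of the membrane arm, and the assembly factor Ndufaf6 at 0.11. Among the 8 Ndufaf genes 5 were lower, 1 was higher and 2 had the same value as the control; the only one past 0.32 was Ndufaf3, at -0.49. This comparison lies within 1 sex pattern.

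At 36 h the subunits lay nearer to the control. Of 32 subunits 22 were lower (46.4% of all genes), and 7 were lower by at least 0.32 on the log2 scale (13.5% of all genes). Of the rest 9 were higher (44.4% of all genes), 1 of them by at least 0.32 (11.5%). None differed by 2-fold, against 1.61% of all genes downwards and 0.933% upwards. The largest differences were in Ndufb9 at -0.73, Ndufa10 at -0.59 and Ndufb11 at -0.55. For scale, the 2 arrays of 48 h lay at least 0.32 apart in 4 subunits and those of 72 h in 4, against 14.4% and 10.1% of all genes.

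At 48 h the difference from the control was below 0 for 30 of 32 subunits, with a median of -0.33, and for 7 of 8 Ndufaf genes, with a median of -0.09, where it was below 0 for 48.5% of all genes and above for 47.4%. Both 48 h arrays lay below the control for 27 subunits and 4 Ndufaf genes, against 34.4% of all genes. No gene passed limma's test after adjustment over all 22180 genes (0 called, or 0% of all genes); the smallest adjusted p among the 42 Nduf genes was 0.121. The count over all genes depended on the scaling, with 77 genes called when array medians of genes were subtracted, 167 with probe set medians and 12 with quantile normalisation again, none of them an Nduf gene. With the unadjusted p under 0.05, 10 subunits, Ndufa4 and no Ndufaf gene were lower, against 11.6% of all genes, and no Nduf gene was higher (8.16%). Among genes brighter than the median gene, 9 of 37 Nduf genes were lower (17.2% of such genes) and none was higher (10.2%). The count of 11 became 7 without either 48 h array, 16 with the replicate number as a block and 23 when the median of all probe sets was subtracted, where 17.5% of all genes were lower and 3.91% higher. The heat map of the 42 genes over the 6 toxin arrays shows this by role.

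**Figure D2:**
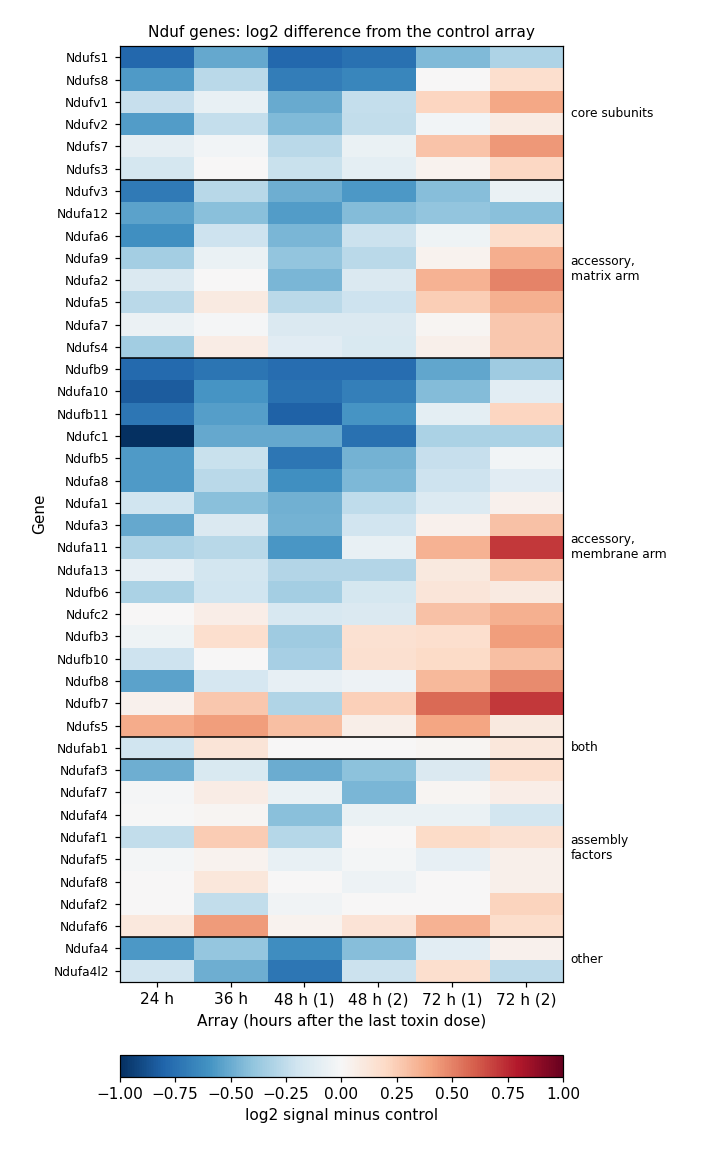
Log2 signal minus control (colour) of 42 Nduf genes (rows, grouped by role and ordered by the 48 h difference) on the 6 toxin arrays (columns). Ndufs1, Ndufb9 and Ndufa10 are blue at 24 to 48 h and paler at 72 h, 15 subunits turn from blue on both 48 h arrays to red on both 72 h arrays, and most assembly factors are pale.

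The core subunits of the matrix arm, which do the redox chemistry, were all lower at 48 h, where 48.5% of all genes were. Ndufs1, the large iron-sulfur protein near the NADH site, measured 9.61 in the control, then 8.82 (24 h), 9.10 (36 h), 8.83 with 8.86 (48 h) and 9.17 with 9.30 (72 h). All 6 toxin arrays were below the control, and the 2 arrays of 48 h were almost equal. Its difference at 48 h was -0.77 ± 0.08 (standard error of the limma fit, adjusted p 0.121), or -41.2%, and at 72 h -0.37 ± 0.08 (adjusted p 0.191).

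Ndufs8, an iron-sulfur subunit on the path to ubiquinone, measured 8.77 in the control, then 8.21 (24 h), 8.51 (36 h), 8.08 with 8.12 (48 h) and 8.78 with 8.94 (72 h). It was low through 48 h and back at the control level at 72 h, with no overlap between the 48 h and 72 h arrays. Its difference from the control was -0.67 ± 0.09 at 48 h (limma, adjusted p 0.127) and 0.08 ± 0.09 at 72 h. Ndufv1, which binds NADH and the flavin, measured 8.54 in the control, then 8.31 (24 h), 8.47 (36 h), 8.04 with 8.31 (48 h) and 8.76 with 8.93 (72 h). Its arrays at 72 h were the highest of the series.

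Ndufv2, the iron-sulfur partner of Ndufv1, measured 9.69 in the control, then 9.14 (24 h), 9.46 (36 h), 9.25 with 9.45 (48 h) and 9.67 with 9.78 (72 h). Its lowest array was that of 24 h, and the 72 h arrays lay on either side of the control. Ndufs7, which holds the last iron-sulfur cluster before ubiquinone, measured 9.51 in the control, then 9.42 (24 h), 9.48 (36 h), 9.24 with 9.44 (48 h) and 9.79 with 9.94 (72 h). Ndufs7 was below the control on both 48 h arrays, the first further than the second, and above it on both 72 h arrays. Ndufs3, a structural core subunit of the same arm, measured 6.60 in the control, then 6.42 (24 h), 6.60 (36 h), 6.38 with 6.50 (48 h) and 6.63 with 6.80 (72 h). The core subunits therefore shared a low point at 24 to 48 h but differed in size, from -0.16 for Ndufs3 to -0.77 for Ndufs1 at 48 h.

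The 8 measured accessory subunits of the matrix arm all lay below the control on both 48 h arrays, against 34.4% of all genes. Their differences at 48 h ran from -0.13 for Ndufs4, a subunit needed for a stable NADH module, to -0.53 for Ndufv3. At 72 h 6 of the 8 were above the control (49.1% of all genes), led by Ndufa2 at 0.42 ± 0.18. Ndufa12 was still lower at -0.41 ± 0.08 (limma, adjusted p 0.174). A second probe set of Ndufa12 gave -0.20 at 72 h, a smaller difference than that of the probe set used. At 48 h it gave -0.68, against -0.49. Its difference between 72 h and 48 h was 0.48, against 0.09, so the course of Ndufa12 depended on the probe set. Ndufab1, the mitochondrial acyl carrier protein, which sits in both arms and also serves fatty acid synthesis, had equal values of 6.72 on the control and both 48 h arrays.

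Among 17 measured subunits of the membrane arm the differences were the most spread, from -0.76 to 0.18 at 48 h. Ndufb9, an accessory subunit at the far end of the arm, measured 11.15 in the control, then 10.38 (24 h), 10.42 (36 h), 10.40 with 10.39 (48 h) and 10.64 with 10.80 (72 h). Its toxin arrays were flat until 48 h and still below the control at 72 h, with differences of -0.76 ± 0.09 at 48 h (limma, adjusted p 0.121) and -0.44 ± 0.09 at 72 h (adjusted p 0.184). Ndufa10 measured 10.07 in the control, then 9.24 (24 h), 9.48 (36 h), 9.32 with 9.39 (48 h) and 9.64 with 9.97 (72 h). The second 72 h array had come close to the control.

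Ndufc1, a small single-span subunit, measured 6.92 in the control, then 5.93 (24 h), 6.41 (36 h), 6.41 with 6.18 (48 h) and 6.61 on both 72 h arrays. It was furthest from the control at 24 h and below it throughout. The X-linked Ndufb11 measured 4.88 in the control, then 4.16 (24 h), 4.33 (36 h), 4.08 with 4.29 (48 h) and 4.78 with 5.10 (72 h). This probe set was dim, below the median gene of the array, and the control and 24 h arrays, which share a sex pattern, differed by -0.72.

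Ndufa11, an accessory subunit of the membrane arm, measured 8.87 in the control, then 8.57 (24 h), 8.59 (36 h), 8.30 with 8.80 (48 h) and 9.22 with 9.58 (72 h). Both 72 h arrays exceeded all others, while the 2 arrays of 48 h were themselves far apart. A second probe set of Ndufa11, at 5.23 on the control array, differed by -0.11 between 72 h and 48 h, opposite in sign to the 0.86 of the one used. Ndufb7 measured 6.99 in the control, then 7.03 (24 h), 7.25 (36 h), 6.69 with 7.22 (48 h) and 7.55 with 7.69 (72 h). It was the subunit furthest above the control at 72 h, at 0.64 ± 0.27.

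Ndufs5 was the exception among subunits. Its probe set measured 4.02 in the control, then 4.39 (24 h), 4.44 (36 h), 4.32 with 4.08 (48 h) and 4.42 with 4.12 (72 h), so that all toxin arrays lay above the control and neither pair was tight. This probe set was dim. Another one, shared by Ndufs5 and its pseudogene and therefore left out of the 42, differed from the control by -0.84 (24 h), -0.72 (48 h) and -0.13 (72 h), which is the direction of most other subunits at 24 and 48 h. The direction of Ndufs5 is therefore uncertain. Other shared probe sets were mixed too. One shared by Ndufs1 and Ino80dos differed from the control by 0.35 at 24 h and -0.15 at 48 h, unlike the probe set of Ndufs1 alone. Of 2 shared by Ndufs6 and Ndufs6b, one differed by -0.39 and the other by 0.13 at 48 h. Those holding Ndufb2 (with Adck2) and the Ndufb4 family differed by -0.60 and -0.21.

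The assembly factors of the Ndufaf series were more even, with Ndufaf3 nearest to the course of the subunits. Ndufaf3, which with Ndufaf4 builds the ubiquinone-binding module, measured 7.39 in the control, then 6.90 (24 h), 7.24 (36 h), 6.89 with 6.98 (48 h) and 7.25 with 7.56 (72 h). Its 48 h and 72 h arrays did not overlap. The difference from the control was -0.45 ± 0.16 at 48 h (limma, adjusted p 0.289) and 0.01 ± 0.16 at 72 h.

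Its partner Ndufaf4 measured 7.96 in the control, then 7.95 (24 h), 7.97 (36 h), 7.53 with 7.89 (48 h) and 7.89 with 7.77 (72 h). Only the first 48 h array stood away from the rest. Ndufaf1, a factor of the membrane arm intermediate, measured 6.96 in the control, then 6.72 (24 h), 7.22 (36 h), 6.68 with 6.96 (48 h) and 7.16 with 7.12 (72 h). The low arrays of Ndufaf1 were those of 24 h and the first of 48 h. Ndufaf7, a methyltransferase of the mitochondrial matrix, measured 6.83 in the control, then 6.82 (24 h), 6.90 (36 h), 6.76 with 6.37 (48 h) and 6.84 with 6.89 (72 h). Here the second 48 h array alone was low.

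The other 4 factors are given by their ranges. Ndufaf5, which hydroxylates Ndufs7, ranged from 5.07 to 5.21 over all arrays, with 5.16 on the control. Ndufaf8, the partner of Ndufaf5, was at 6.30 on the control array and ranged from 6.25 to 6.41. Ndufaf2, an assembly factor related in sequence to Ndufa12, was at 5.08 on the control array and ranged from 4.84 to 5.30. Ndufaf6, needed early in assembly, was at 5.26 on the control array and above it on all 6 toxin arrays, from 5.30 at 48 h to 5.69 at 36 h. All but 2 of the 8 Ndufaf genes were brighter than the median gene, and among those 6 the median difference was -0.17 and -0.06 on the 48 h arrays.

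The gap between the classes can be read from each array. Subunits minus Ndufaf genes, as a difference of medians, came to -0.32 (24 h), -0.23 (36 h), -0.38 with -0.17 (48 h) and 0.04 with 0.10 (72 h). The gap at 48 h was -0.28 and -0.15 when only members brighter than the median gene were counted. With quantile normalisation again it was -0.32 and -0.06, so on the second 48 h array the gap rested on the normalisation. With 8 factors and 1 control array, no test of this difference was made.

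Both remaining genes were also lower than the control at 48 h. Ndufa4, now counted as a subunit of complex IV, measured 10.54 in the control, then 9.97 (24 h), 10.15 (36 h), 9.92 with 10.11 (48 h) and 10.44 with 10.58 (72 h). Its difference at 48 h was -0.52 ± 0.13 (limma, adjusted p 0.192). Ndufa4l2, a paralogue of Ndufa4 known as a target of hypoxia signalling, was dim and measured 5.15 in the control, then 4.96 (24 h), 4.66 (36 h), 4.43 with 4.94 (48 h) and 5.32 with 4.89 (72 h). Its 72 h arrays lay on either side of the control.

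At 72 h the Nduf genes as a whole no longer lay below the control. Of 32 subunits 23 were above it (49.1% of all genes) and 9 below (47.3%), and both 72 h arrays were above the control for 20 subunits and below it for 8, against 34.2% and 33.9% of all genes. With limma's unadjusted p under 0.05, 3 subunits were higher (Ndufa5, Ndufb8 and Ndufc2; 7.93% of all genes) and 3 were lower (Ndufs1, Ndufb9 and Ndufa12; 10% of all genes). None passed adjustment (0% of all genes; 13, 30 and 6 genes, no Nduf gene among them, under the same 3 scalings), with a smallest adjusted p of 0.167 for Ndufc2, at 0.32 ± 0.06. Of the 6, Ndufb8 was at 0.40 ± 0.09 and Ndufa5 at 0.30 ± 0.07. The count of higher genes ranged from 2 to 8 as single arrays of 48 h or 72 h were left out, with 8 in the absence of the first 72 h array, and was 7 with the replicate number as a block. With array medians subtracted it was 6, and with quantile normalisation again the count of lower genes was 1.

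The subunits followed more than 1 course over the arrays. Below the control on all 6 toxin arrays were 8 subunits, namely Ndufs1, Ndufa12, Ndufv3, Ndufa8, Ndufa10, Ndufb5, Ndufb9 and Ndufc1, a share close to the 22.6% of all genes. Above it on all 6 were Ndufs5 and Ndufaf6, against 20.2% of all genes. Below on both 48 h arrays and above on both 72 h arrays were 15 subunits and Ndufaf7, against 2.45% of all genes. These 15 were Ndufs3, Ndufs7, Ndufs8 and Ndufv1 of the core, Ndufa2, Ndufa5, Ndufa7, Ndufa9 and Ndufs4 of the matrix arm, and Ndufa3, Ndufa11, Ndufa13, Ndufb6, Ndufb8 and Ndufc2 of the membrane arm. The 48 h and 72 h differences share the control array.

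The comparison of 72 h with 48 h does not use the control array and lies within 1 sex pattern. All 42 Nduf genes had a higher mean at 72 h, where 51.1% of all genes did and 47.1% were lower. The median difference was 0.40 for subunits, or 31.6%, and 0.15 for Ndufaf genes, or 11.1%, against 0.0036 for all genes. Both 72 h arrays lay above both 48 h arrays for 31 of 32 subunits and 4 of 8 Ndufaf genes, against 16.7% of all genes. No member had both 72 h arrays below both 48 h arrays, as 13% of all genes did, and the one subunit with overlap was Ndufs5. With limma's unadjusted p under 0.05, 20 subunits, Ndufaf3 and Ndufa4 were higher and none was lower, against 4.27% and 2.8% of all genes. Among genes brighter than the median gene, 22 of 37 Nduf genes were higher and none lower, against 6.25% and 3.14% of such genes. None passed adjustment over all genes (0% of all genes), and the smallest adjusted p was 0.705 for any Nduf gene.

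**Figure D3:**
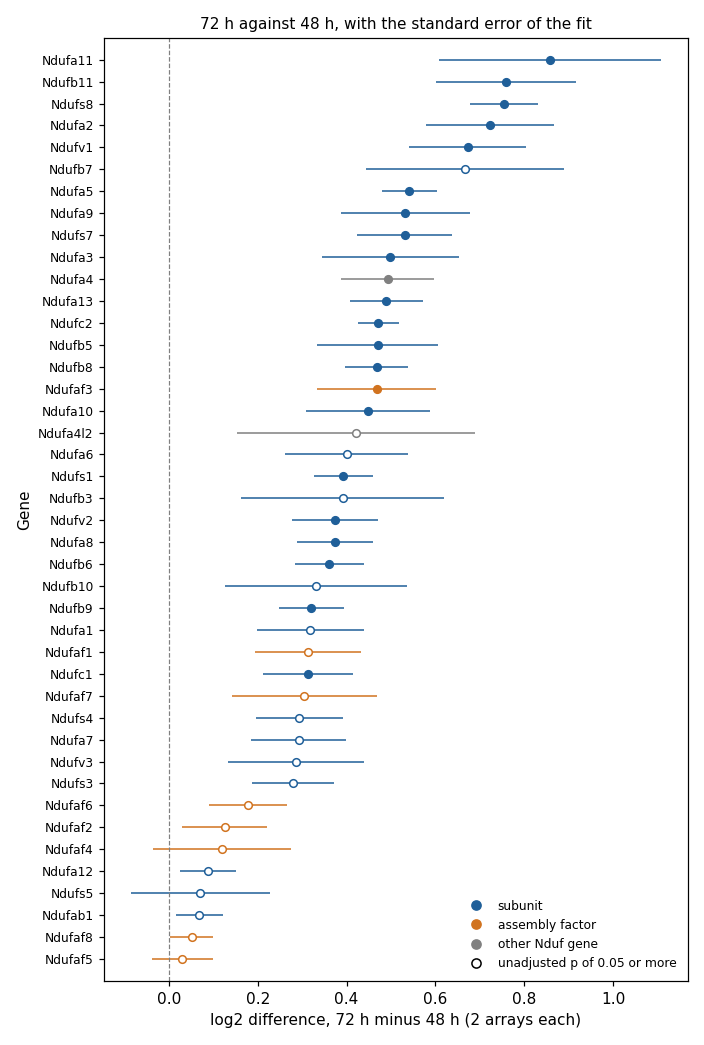
Log2 difference of 72 h minus 48 h (horizontal axis, 2 arrays each; bars are the standard error of the limma fit) for 42 Nduf genes (vertical axis, ordered by value). All 42 lie above 0, from 0.03 for Ndufaf5 to 0.86 for Ndufa11, and filled points have an unadjusted p under 0.05.

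The plot of 72 h minus 48 h by gene shows the spread among the subunits. Ndufa11 differed most, by 0.86 ± 0.25, followed by Ndufb11 at 0.76 ± 0.16 and Ndufs8 at 0.75 ± 0.08. Smallest were Ndufaf5 at 0.03 ± 0.07, Ndufaf8 at 0.05 ± 0.05 and Ndufab1 at 0.07 ± 0.05. By class the median was 0.46 for the 6 core subunits, 0.35 for the 8 accessory subunits of the matrix arm and 0.45 for the 17 of the membrane arm. The smallest unadjusted p-values in limma were those of Ndufc2 at 0.47 ± 0.05, Ndufs8, and Ndufa5 at 0.54 ± 0.06.

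The count of 22 Nduf genes in this comparison rested on single arrays. It was 7 without the first 48 h array, 9 without the second 72 h array, and 15 and 16 without the other two, while 41 of 42 genes stayed higher each time. Crossing the replicate numbers gave 15. Most members also differed in the same direction within pairs: the second 48 h array was above the first in 34 of 42 Nduf genes (43.7% of all genes) and the second 72 h array above the first in 35 of 42 (45.9%). The median step within a pair was 0.12 at 48 h and 0.15 at 72 h, against 0.38 between the time points. Array medians of the 42 genes were -0.41 with -0.20 (48 h) and 0.02 with 0.17 (72 h).

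The slope over the 6 toxin arrays, as log2 per 24 h of recovery, was above 0 for 31 of 32 subunits and 5 of 8 Ndufaf genes, where it was above 0 for 51.3% of all genes. Its median was 0.21 per 24 h for subunits and 0.03 for Ndufaf genes. With limma's unadjusted p under 0.05 the slope was positive for 14 subunits and Ndufa4 and negative for none (4.22% and 4.47% of all genes), and 0 genes passed adjustment (0% of all genes). Ndufb8, a membrane arm subunit, had the smallest p, with a slope of 0.44 ± 0.04 per 24 h and an adjusted p of 0.419 in limma. Its log2 signal measured 5.90 (24 h), 6.27 (36 h), 6.35 with 6.39 (48 h) and 6.76 with 6.91 (72 h), against 6.44 in the control. The count of 15 was 8 without the first 72 h array, 4 without the second, and 9 without the 24 h array.

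Other genes of the pathway did not all share this course. Of 11 measured assembly factors outside the Ndufaf series, all 11 were below the control at 48 h (48.5% of all genes), with a median of -0.47. Of these 5 had an unadjusted p under 0.05 in limma (11.6% of all genes). Their differences at 48 h ran from -1.06 ± 0.14 for Tmem126b, a factor of the membrane arm intermediate, to -0.02 for Timmdc1, a membrane assembly factor. At 72 h the median over arrays was still -0.20 and -0.20, and 8 of the 11 were below the control on all 6 toxin arrays (22.6% of all genes). From 48 h to 72 h their median difference was 0.13, with 1 gene at an unadjusted p under 0.05 (4.27% of all genes), namely Tmem126a.

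Complex II, the succinate dehydrogenase, feeds electrons in beside complex I. Its 8 genes were those of the subunits Sdha, Sdhb, Sdhc and Sdhd and of the assembly factors Sdhaf1 to Sdhaf4. Their median was -0.21 and -0.20 on the 48 h arrays and 0.10 and 0.25 on the 72 h arrays. The catalytic subunit Sdha was lowest at 48 h, at -0.68, and the assembly factor Sdhaf1 highest, at 0.25. All 8 genes were higher at 72 h than at 48 h (51.1% of all genes), 3 of them with an unadjusted p under 0.05 in limma (4.27%). In order, the difference was 0.27, 0.62, 0.52 and 0.17 for the subunits Sdha, Sdhb, Sdhc and Sdhd. For the assembly factors Sdhaf1 to Sdhaf4 it was 0.29, 0.05, 0.14 and 0.20. Among 11 genes of general mitochondrial content, the median was 0.01 with 0.02 (48 h) and 0.17 with 0.05 (72 h). They ranged at 48 h from -1.17 for Slc25a4, an ADP/ATP carrier, to 0.71 for the chaperone Hspd1. The median near 0 at 48 h thus covered members on both sides of the control, with citrate synthase (Cs) at -0.21 and the carrier Slc25a5 at -0.23 among the lower ones.

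Of 14 regulators of respiratory genes, 10 were above the control at 48 h (47.4% of all genes) and 4 below it (48.5%), with a median of 0.05. The orphan nuclear receptor gene Esrrb was lowest, at -1.20, and the mitochondrial RNA polymerase gene Polrmt highest, at 0.42. Esrrg, a nuclear receptor of parietal cells, was at 0.03 and the coactivator Ppargc1a at 0.03. From 48 h to 72 h their median difference was -0.0018.

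**Figure D4:**
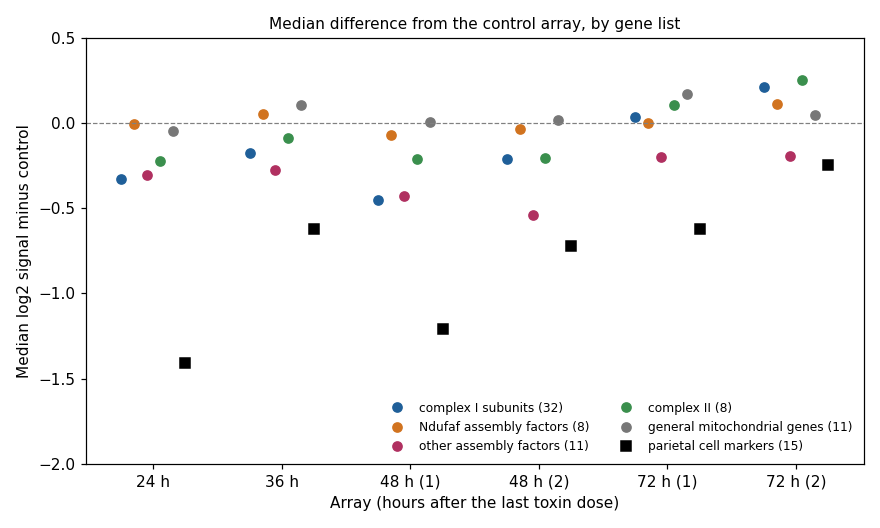
Median log2 signal minus control (vertical axis) of 6 gene lists on the 6 toxin arrays (horizontal axis); the number of genes measured is in the key, and points are offset sideways. Complex I subunits and complex II lie below 0 on both 48 h arrays and above 0 on both 72 h arrays, while parietal cell markers lie below 0 on every array. The complex II list holds subunits and assembly factors.

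Markers of cell types differed alongside, and their part in these results was not tested. The median of 15 parietal cell markers came to -1.41 (24 h), -0.62 (36 h), -1.21 with -0.72 (48 h) and -0.62 with -0.25 (72 h). The mean log2 level of the list was 10.35 on the control array, 9.03 with 9.38 (48 h) and 9.61 with 9.87 (72 h). Of the 15 markers 11 were higher at 72 h than at 48 h (51.1% of all genes). The arrays with the lowest parietal cell medians, those of 24 h and the first of 48 h, were also those with the lowest subunit medians, and the second 72 h array was highest in both. The median of the parietal cell markers was still below the control at 72 h, while that of the subunits was not. Endothelial markers were also below the control, with a median of -1.24 with -1.47 (48 h) and -1.30 with -1.06 (72 h) over 5 genes. Chief cell markers had a median of -0.69 with -0.65 (48 h) and -0.63 with -0.58 (72 h) over 6 genes. Proliferation markers went the other way, with a median of 1.24 with 1.11 (48 h) and 0.89 with 0.40 (72 h) over 5 genes. All 5 were lower at 72 h than at 48 h (47.1% of all genes). Neck cell markers were above the control at 48 h too, with a median of 0.56 with 0.21 over 3 genes.

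Smooth muscle markers were also higher at 72 h than at 48 h, and their part was not tested. Of 7 such markers 6 were higher at 72 h (51.1% of all genes), with a median difference of 0.22 and 2 genes at an unadjusted p under 0.05 in limma (4.27%). The mean log2 level of the list was 9.63 with 9.60 (48 h) and 9.71 with 9.98 (72 h), against 9.76 on the control array. Over the same arrays, chief cell markers had a median difference of -0.06 between 72 h and 48 h over 6 genes, pit cell markers -0.01 over 4, leukocyte markers 0.05 over 6, endothelial markers 0.14 over 5, neck cell markers -0.36 over 3, pancreas markers -0.08 over 4, forestomach markers 0.11 over 4 and adipocyte markers 0.03 over 5. Single markers differed more, with Cela1 of the pancreas list at 1.52 and Tff2 of the neck cell list at 0.62.

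Promoter sequence was examined because all 32 subunits had a higher mean at 72 h than at 48 h. RefSeq windows of the mouse assembly GRCm38.p6, from 250 bases before to 50 after the start, were at hand for 37 of the 42 genes. The motif of NRF1, a factor named for nuclear respiratory genes, was searched on both strands as GCGC, any base, then TGCGC. It was found in 6 of 31 subunit windows and 2 of 7 Ndufaf windows, against 4.6% of all windows; the 2 windows of Ndufa5 overlap, and the match in them is the same. Motifs of YY1 (AAGATGGC), ETS factors (CCGGAAG) and estrogen-related receptors (CAAGGTCA) were found in 6, 4 and 1 of the 31 subunit windows, against 2.75%, 8.86% and 1.56% of all windows. In the 7 Ndufaf windows they were found in 1, 2 and 0. The longer receptor motif TCAAGGTCA was found in 0 windows of Nduf genes, against 0.423% of all windows. A match is a description of the letters and not evidence of binding.

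The 250 bases before the start are shown for Ndufa11, the gene that differed most between 72 h and 48 h, for Ndufa8, a subunit that stayed below the control, for the assembly factor Ndufaf4 and for Ndufa10, a strongly lower subunit without a match. Capitals mark the NRF1 motif.
Ndufa11, chr17:56717512-56717761, plus strand: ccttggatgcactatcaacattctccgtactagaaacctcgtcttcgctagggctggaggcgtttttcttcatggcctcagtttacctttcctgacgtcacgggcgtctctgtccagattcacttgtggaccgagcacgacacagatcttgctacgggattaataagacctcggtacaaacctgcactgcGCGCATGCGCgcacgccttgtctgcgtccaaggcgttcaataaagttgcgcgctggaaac
Ndufa8, chr2:36049339-36049588, minus strand: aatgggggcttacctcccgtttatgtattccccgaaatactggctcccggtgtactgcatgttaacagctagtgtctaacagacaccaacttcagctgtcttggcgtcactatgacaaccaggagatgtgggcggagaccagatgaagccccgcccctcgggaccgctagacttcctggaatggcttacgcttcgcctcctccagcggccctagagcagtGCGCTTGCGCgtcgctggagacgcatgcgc
Ndufaf4, chr4:24897833-24898082, plus strand: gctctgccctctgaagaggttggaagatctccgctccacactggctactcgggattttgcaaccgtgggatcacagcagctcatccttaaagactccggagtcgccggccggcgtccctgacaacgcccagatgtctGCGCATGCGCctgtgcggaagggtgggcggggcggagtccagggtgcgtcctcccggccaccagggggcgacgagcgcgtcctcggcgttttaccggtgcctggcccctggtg
Ndufa10, chr1:92473759-92474008, minus strand: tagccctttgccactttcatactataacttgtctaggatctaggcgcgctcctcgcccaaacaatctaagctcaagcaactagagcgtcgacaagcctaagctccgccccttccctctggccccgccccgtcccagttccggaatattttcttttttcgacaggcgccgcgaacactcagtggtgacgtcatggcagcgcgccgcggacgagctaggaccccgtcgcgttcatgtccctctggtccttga
Counted from the start, with -1 as the base before it, the match begins at -60 in Ndufa11, -30 in Ndufa8 and -113 in Ndufaf4. The same motif thus stood before genes with differences between 72 h and 48 h of 0.86, 0.37 and 0.12.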

How the data were processed

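RNA of gastric corpus from 7 samples was hybridised to Affymetrix mouse arrays, 1 per sample. The authors deposited log2 values that, per the submitters' processing notes, came from RMA in Partek; the sources used here give no version or genome build, and 0 columns were left unused. Of 41345 probe sets, 23521 named 1 gene, 1814 several and 16010 none, by the platform annotation; the probe set with the highest mean stood for each of 22180 genes.

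Differences were fitted over all genes by lmFit and eBayes of limma 3.58.1, run under R 4.3.3 (all 7 arrays, groups as terms; a slope on hours over the 6 toxin arrays), with Benjamini-Hochberg adjustment and a threshold of 0.05; 2 residual degrees of freedom remained for groups and 4 for the slope. Summaries used Python 3.11.15. The scripts were tested on simulated data. The small number of arrays limits the precision, and groups of 1 array got no test. Named genes are the 5 lowest and 5 highest at 48 h, the 3 at each end at 24 h and for 72 h minus 48 h, all measured core subunits, all Ndufaf genes, and Ndufa4 and Ndufa4l2; the genes at either end of a pathway list at 48 h were named too, and others were chosen after their values were seen. Members and lists were chosen with earlier results of these data known. Alternatives covered array scaling, quantile normalisation, dim genes, the rule for probe sets, the prior, single arrays left out and the replicate number as a block.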

Additional observations from a re-analysis of the deposited data

Results flagged for a closer look

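Some values lay below the control on both 48 h arrays and above it on both 72 h arrays. Both times share 1 control array, so the difference between their contrasts is 72 h minus 48 h; in limma its smallest adjusted p among the Nduf genes was 0.705. As 72 h minus 48 h on the log2 scale, the medians were 0.40 for all subunits, 0.46 for core subunits and 0.35 for accessory subunits of the matrix arm. They were 0.45 for those of the membrane arm and 0.23 for complex II, subunits and assembly factors together. In the core the difference was 0.75 for Ndufs8, 0.67 for Ndufv1, 0.53 for Ndufs7 and 0.28 for Ndufs3. In the matrix arm it was 0.72 for Ndufa2, 0.54 for Ndufa5, 0.53 for Ndufa9, 0.29 for Ndufs4 and 0.29 for Ndufa7. In the membrane arm it was 0.86 for Ndufa11, 0.50 for Ndufa3, 0.49 for Ndufa13, 0.47 for Ndufc2, 0.47 for Ndufb8 and 0.36 for Ndufb6. Ndufaf7 was the only assembly factor of the Ndufaf series with this pattern, at 0.30.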

How the results depend on the processing

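No Nduf gene passed adjustment under any alternative tried. With single arrays left out, the count of members with an unadjusted p under 0.05 in limma ranged from 7 to 10 at 48 h (11 with all arrays), 7 to 16 for 72 h minus 48 h (22) and 4 to 20 for the slope (15). The slope count was 9 over 36 to 72 h. Subtracting probe set medians, which shifted arrays by up to 0.14, gave 23 members lower at 48 h and Ndufaf medians of -0.081 (24 h), -0.044 (36 h), -0.17 with -0.18 (48 h) and -0.061 (first 72 h array); this and the added crossed block were chosen after seeing the data. It also moved the shares of all genes to 11.6% lower and 5.37% higher at 72 h, and the counts of all genes for 72 h minus 48 h to 278 lower and 1680 higher (621 and 948 before). Without dim genes the Ndufaf median on the first 48 h array was -0.17, and with quantile normalisation again the subunit median on the second was -0.051. Among 24 named members, signs turned at 48 h for Ndufaf6 (-0.034, probe set medians) and Ndufaf8 (0.0395, quantile). They also turned for Ndufb7 (0.069 with quantile, and -0.30 to 0.24 with single arrays left out, the highest without the first 48 h array). Of the other members, Ndufb3 and Ndufb10 turned without the first 48 h array, to 0.15 and 0.16. With quantile normalisation again 7 of all 42 members were higher at 48 h, against 2 before. For 72 h minus 48 h signs turned for Ndufaf4 (-0.060 to 0.30, the lowest without the first 48 h array), Ndufaf5 (-0.037 to 0.098, the lowest without the second 72 h array) and Ndufs5 (-0.077 to 0.22, below 0 without the first 72 h array and, at -0.048, without the second 48 h array). The causes were not tested. The replicate numbers only name samples; within-pair differences at 48 h and 72 h correlated at -0.13 across 22180 genes. With the replicate block the counts were 16 lower at 48 h, 7 higher at 72 h, 26 for 72 h minus 48 h and 14 for the slope, and with crossed pairing 9, 2, 15 and 11; 0 genes passed adjustment in either.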
